A study of Mus musculus with 24 samples.

Results

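The genes described here are 9 components of interferon signalling, measured by RNA sequencing in laser-captured basal forebrain cholinergic neurons of Ts65Dn and 2N mice. They were picked by gene symbol from the count table: the interferon receptor genes Ifnar1, Ifnar2, Ifngr1 and Ifngr2, the related receptor gene Il10rb, the kinase genes Jak1 and Tyk2, and the transcription factor genes Stat2 and Irf9. All 9 were found among the 55414 gene identifiers of the table, and all 9 were among the 19967 genes with enough reads to be tested. Ts65Dn is a mouse model of Down syndrome in which a segment of chromosome 16, joined to a piece of chromosome 17, is present in an additional copy, and 4 of the 9 genes (Ifnar1, Ifnar2, Ifngr2 and Il10rb) lie in the triplicated segment of chromosome 16. The other 5 lie on other chromosomes.

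The study compared Ts65Dn with disomic (2N) male mice at about 6 months of age, in offspring of dams given chow with 1.1 g/kg choline chloride (control diet) or 5.0 g/kg (supplemented diet) through gestation and nursing. All offspring ate the control diet from weaning, so every group was on the same chow at collection. The breeders were Ts65Dn females and males of the C57Bl/6J Eicher × C3H/HeSnJ F1 cross, so the mice were not inbred. About 500 neurons of the medial septum and the vertical limb of the diagonal band, stained for choline acetyltransferase, were pooled for each library. By the labels there were 12 libraries of the control diet (6 Ts65Dn and 6 2N) and 12 of the supplemented diet (8 Ts65Dn and 4 2N), each from 1 animal. The design text states 6 mice in each group.

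Type I interferons bind a receptor made of the Ifnar1 and Ifnar2 chains, and interferon gamma binds a receptor made of Ifngr1 and Ifngr2. Il10rb is the shared second chain of the receptors for interferon lambda, interleukin 10 and interleukin 22. The kinases Jak1 and Tyk2 are bound to the inner ends of these chains (Jak1 with Jak2 for interferon gamma), and they phosphorylate Stat proteins. Stat2 and Irf9 are parts of the complex that binds the interferon-stimulated response element (ISRE) of target promoters, and a second element, the gamma-activated site (GAS), serves the response to interferon gamma. The 4 receptor genes on chromosome 16 lie side by side, on the same strand, in the order Ifnar2, Il10rb, Ifnar1 and Ifngr2.

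Promoters of the genes were searched for these 2 elements because the members of the pathway can themselves be targets of it. RefSeq (build GRCm38.p6) held a promoter, from 250 bases before to 50 bases after the start of the gene, for 8 of the 9 genes, and none was held for Il10rb. The ISRE core was searched on both strands as GAAA, any 2 bases and GAAA again, and the GAS as TTCNNNGAA, which reads the same on both strands. Matches were found in 3 genes, and a window of 60 bases around each is shown 5′ to 3′ on the plus strand, with the match in capitals.
Stat2, chr10:128270250-128270309, ISRE core on the opposite strand, first base at -222 from the start: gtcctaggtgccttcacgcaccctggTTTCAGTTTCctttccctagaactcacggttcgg
Ifnar2, chr16:91372543-91372602, GAS, first base at -214: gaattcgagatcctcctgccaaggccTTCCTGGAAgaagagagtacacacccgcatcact
Ifnar1, chr16:91485159-91485218, GAS, first base at -5: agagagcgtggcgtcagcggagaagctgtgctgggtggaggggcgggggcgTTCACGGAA
The ISRE core was present in 3.44% of all 32851 RefSeq promoters and in 27 of the 61 listed interferon-stimulated genes that had a promoter (44.3%). A listed gene was counted if any of its promoters matched, so its unit is the gene and not the promoter. The GAS was present in 8.3% of all promoters and in 15 of those 61 (24.6%). A match to these letters is a description of the sequence and no measurement of binding.

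Library totals ran from 4688258 to 13443438 counts with a median of 10010353, and the genes detected ran from 13102 to 22593. The labelled cell type was checked against its markers. Chat, which encodes choline acetyltransferase, was under 1 CPM (counts scaled to library size) in 6 of 24 libraries and at 0 in 1 of them, while Mbp, a myelin gene of oligodendrocytes, ran from 386.9 to 2147 CPM. The summed level of 10 cholinergic markers ran from 7.48 to 212.8 CPM in the control-diet Ts65Dn libraries and from 182.9 to 278.5 CPM in control-diet 2N. Over both supplemented groups it ran from 207.5 to 504.9 CPM. Transcripts typical of other cells were thus present, and in bulk samples fewer cells of a type and less RNA per cell cannot be told apart.

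All 9 genes had reads, although Ifngr1, Il10rb and Irf9 were at 0 in 2, 3 and 1 of 24 libraries. By mean log2 CPM, from 50% (for Il10rb) to 94% (for Jak1) of the tested genes were lower than a member. The 9 genes were compared with each other in TPM, the deposited scale that takes transcript length into account. Jak1 was highest, with a median of 49.1 TPM over the 24 libraries (range 10.8 to 149.7). Ifnar1 followed at a median of 18.8 TPM, Ifngr1 at 13.0, Stat2 at 11.6, Ifngr2 at 7.82, Irf9 at 7.08, Ifnar2 at 6.39, Il10rb at 3.74 and Tyk2 at 3.42. Jak1 was above Ifnar1 in 21 of 24 libraries, but from Ifnar1 downwards each gene was above the next in only 12 to 15 of 24, so these neighbours did not differ beyond their spread.

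The transcripts of paired components were compared within each library. Ifnar1 was above Ifnar2 on the TPM scale in 18 of 24 libraries, with a median log2 ratio of 1.73 (log2 of TPM + 1). Ifnar1 was above Il10rb in 22 of 24. For the interferon gamma receptor the order of the chains was mixed: Ifngr2 was above Ifngr1 on the control diet in 3 of 6 Ts65Dn and 1 of 6 2N libraries, and with supplementation in 6 of 8 Ts65Dn and 2 of 4 2N libraries. The kinase pair was the most uniform, with Jak1 above Tyk2 in 24 of 24 libraries. Stat2 was above Irf9 in 15 of 24.

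**Figure D1:**
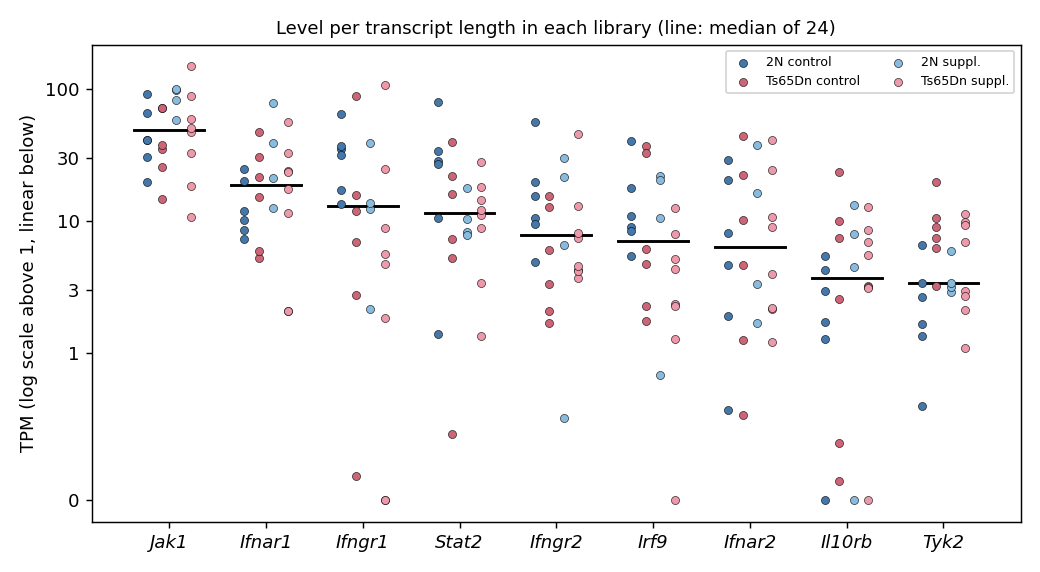
TPM of the 9 genes in each of the 24 libraries, ordered by median (horizontal lines), on an axis that is logarithmic above 1 TPM and linear below; colours mark genotype and diet. Jak1 stands highest with a median of 49.1 TPM, and the points of the other 8 genes overlap.

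The first question was whether the 4 triplicated receptor genes were higher in Ts65Dn, for which gene dose alone would give a 1.5-fold difference (0.58 on the log2 scale). None of the 4, and none of the 9 genes, passed the test in any of the 6 comparisons (edgeR quasi-likelihood test, Benjamini-Hochberg adjusted p under 0.05 over all genes tested). On the control diet 0.336% of all genes passed this test for genotype, on the supplemented diet 0.18%, and for the genotype effect averaged over the diets 0.982%. With DESeq2, 1 of the 9 passed on the control diet and 1 in the average (Tyk2 in both), beside 1.67% and 3.79% of all genes, and none of the 9 with genotype on the supplemented diet, where it called 2.14% of all genes. With limma on log2(TPM + 1) none of the 9 passed in any comparison. At an unadjusted p under 0.05 the edgeR test gave Tyk2 alone, in the same 2 comparisons, where 10.9% and 12.9% of all genes reached that level (9.49% on the supplemented diet).

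Ifnar1 encodes the signalling chain of the type I interferon receptor that binds Tyk2. In control-diet 2N libraries its lowest, median and highest levels were 17.4, 25.2 and 40.0 CPM, and in control-diet Ts65Dn they were 12.8, 40.9 and 78.9 CPM. The 3 highest control-diet Ts65Dn libraries were above every 2N library of that diet and the 2 lowest were below all of them. On the supplemented diet the 4 2N libraries had 25.4, 61.0, 30 and 47.0 CPM, and the 8 Ts65Dn libraries ran from 8.95 through a median of 43.8 to 108.2 CPM, on both sides of the 2N libraries. The log2 difference, Ts65Dn minus 2N, was 0.67 ± 0.50 (SE; 95% interval -0.33 to 1.67; edgeR adjusted p 0.748) on the control diet and 0.17 ± 0.53 with supplementation. Averaged over the diets it was 0.42 ± 0.36, with an interval of -0.32 to 1.15 that holds both no change and the 1.5-fold of gene dose.

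Ifnar2 encodes the chain that binds type I interferon most tightly and carries Jak1. Its levels were 1.43, 9.97 and 20.5 CPM (lowest, median, highest) in control-diet 2N and 0.868, 13.9 and 55.6 CPM in control-diet Ts65Dn. The control-diet Ts65Dn libraries thus held both the lowest and the highest value of that diet. Among supplemented mice the 2N libraries had 12.3, 23.8, 2.35 and 0.927 CPM, and the Ts65Dn libraries 2.37, 5.93 and 26.5 CPM. The averaged genotype difference was 0.55 ± 0.68 (log2, SE; adjusted p 0.854 by edgeR). On the control diet it was 0.80 ± 0.93, and it was 0.04 without the Ts65Dn library that held 55.6 CPM (replicate 1).

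Il10rb, the shared chain of the interferon lambda and interleukin 10 family receptors, was the lowest of the triplicated members and was at 0 in 3 of 24 libraries, 1 in each group but control-diet Ts65Dn. Its lowest, median and highest levels were 0, 1.91 and 6.24 CPM in control-diet 2N and 0.206, 4.31 and 15.6 CPM in control-diet Ts65Dn. Supplemented 2N libraries had 12.9, 5.93, 0 and 6.26 CPM, and supplemented Ts65Dn libraries ran from 0 through 8.81 to 26.3 CPM. The averaged genotype difference of 0.98 ± 0.96 (log2, SE) had an interval of -0.97 to 2.92 and an edgeR adjusted p of 0.788. A protein-coding gene model, Gm21970, overlaps both Il10rb and Ifnar2 on the same strand. It had counts in 3 of 24 libraries, so reads there could be divided between it and these receptor genes.

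Ifngr2, the signalling chain of the interferon gamma receptor and the carrier of Jak2, had log2 differences of opposite sign on the 2 diets, neither of which passed the test. Control-diet 2N libraries had 15.1, 31.7 and 70.4 CPM (lowest, median, highest) and control-diet Ts65Dn libraries 6.09, 15.1 and 44.0 CPM. Only 2 of 6 Ts65Dn libraries were above the 2N mean on that diet. On the supplemented diet the 2N libraries had 19.4, 20.2, 22.4 and 0.696 CPM and the Ts65Dn libraries 11, 26.9 and 44.1 CPM, with 6 of 8 above every 2N library. The log2 genotype difference was -0.79 ± 0.59 (SE) on the control diet, where the interval of -1.97 to 0.39 does not hold the 0.58 of gene dose, and 0.82 ± 0.64 (interval -0.47 to 2.11) on the supplemented diet. The difference between these differences, the genotype by diet interaction, was 1.61 ± 0.87 (interval -0.14 to 3.36; adjusted p 0.651 by edgeR). Averaged over the diets Ifngr2 differed by 0.02 ± 0.42. Without the supplemented 2N library at 0.696 CPM (replicate 4) the interaction was 1.21, the supplemented-diet difference was 0.42 and the average was -0.18.

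**Figure D2:**
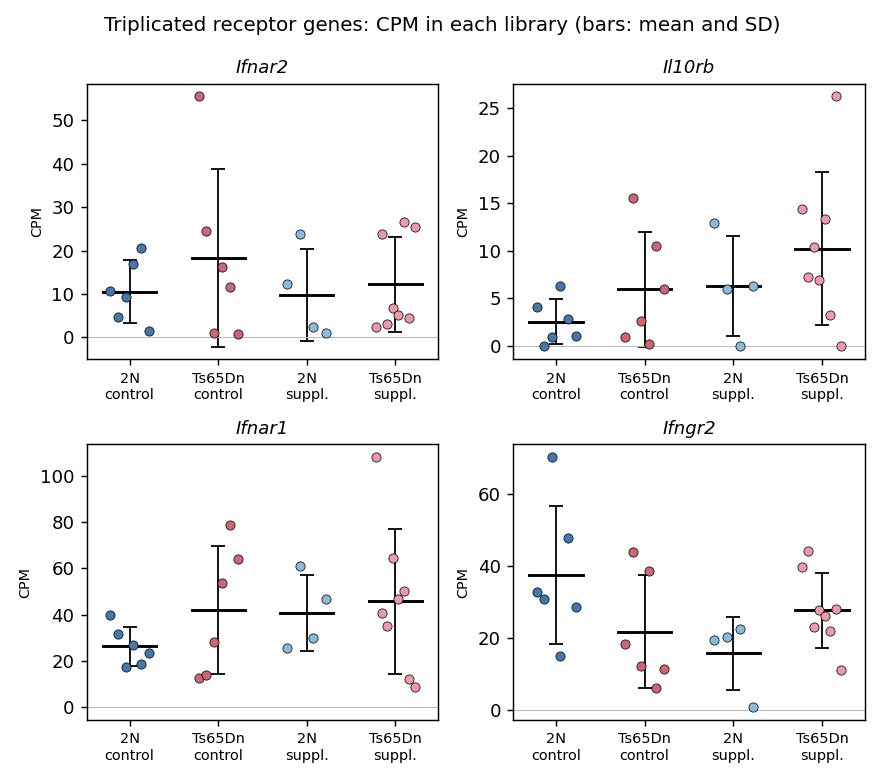
CPM of the 4 triplicated receptor genes in each library, by genotype and diet; bars are the mean and SD (n = 6 in both control-diet groups, and with supplementation n = 4 for 2N and n = 8 for Ts65Dn). The groups overlap for each of the 4 genes in both diets.

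As a group, the 4 triplicated genes had positive log2 differences in 3 of 4 on the control diet (median 0.74) and in 4 of 4 on the supplemented diet (median 0.50). In the average they were positive in 4 of 4 (median 0.48), but with limma on log2(TPM + 1) Ifnar1 (-0.37), Ifnar2 (-0.08) and Ifngr2 (-0.72) were negative there, on a scale where the median of all genes moved to -0.35, and with total counts unscaled Ifngr2 was at -0.08. Over all tested genes 49.0%, 54.0% and 51.9% were positive in these comparisons, with medians of -0.02, 0.09 and 0.04. Their summed level ran from 54.3 to 98.0 CPM in control-diet 2N and from 43.9 to 108.6 CPM in control-diet Ts65Dn. In the supplemented groups it ran from 54.8 to 111.0 CPM in 2N and from 45.4 to 164.6 CPM in Ts65Dn, so the groups overlapped on both diets.

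The genes on either side of the receptor cluster, from Synj1 to Rcan1, share its triplication and gave a reading of gene dose in the same libraries. Of 17 neighbouring gene models 16 were tested. Son, which encodes a splicing cofactor, and Paxbp1 rose in Ts65Dn in the averaged comparison with edgeR, and the other 14 did not pass that test. Of all genes 0.982% passed it. DESeq2 called the same 2 genes and Itsn1 higher, beside 3.79% of all genes called in either direction. The neighbours were positive in 13 of 16 with a median of 0.23. On single diets 0 of 16 passed with edgeR, with 3 at an unadjusted p under 0.05 on the control diet and 5 with supplementation, where 10.9% and 9.49% of all genes reached that level. Of the 3 on the control diet 2 were higher and 1 was lower, an Atp5o model at -1.64 (edgeR adjusted p 0.208). All 5 with supplementation were higher. Among them was another Atp5o model, a readthrough model, at 7.32, whose supplemented 2N mean was only 0.0193 CPM. On single diets DESeq2 called Son on the control diet and Son and Paxbp1 with supplementation, beside 1.67% and 2.14% of all genes.

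Son was at 476.2, 503.8 and 657.9 CPM (lowest, median, highest) in control-diet 2N and at 707.7, 851.8 and 1114 CPM in control-diet Ts65Dn. All 6 control-diet Ts65Dn libraries were above all 6 2N libraries. On the supplemented diet Son had a mean of 478.6 ± 121.5 CPM (SD, n = 4) in 2N and 802.8 ± 116.9 CPM (SD, n = 8) in Ts65Dn, with 7 of 8 Ts65Dn libraries above every 2N library. Its averaged log2 difference was 0.73, with a 95% interval of 0.47 to 1.0 (edgeR adjusted p 0.000923). It was 0.89 on the control diet within ID prefix 17 (edgeR adjusted p 0.304). On the supplemented diet it was 0.66 within ID prefix 16 (edgeR adjusted p 0.856), so neither passed. ID prefix is the first part of the animal identifier. These were the only prefixes with 2 libraries or more in both genotypes on the same diet. With limma on log2(TPM + 1) the averaged value was 0.48 with an adjusted p of 0.196. Paxbp1 differed by 0.95, interval 0.51 to 1.39 (adjusted p 0.017 by edgeR), and lost the call with limma on log2(TPM + 1) (adjusted p 0.246), with unscaled totals (0.055) and without supplemented 2N replicate 3 (0.0578) or 4 (0.0555).

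The summed level of the neighbours separated the genotypes within each diet. It ran from 1635 to 2444 CPM in control-diet 2N and from 2507 to 2792 CPM in control-diet Ts65Dn, and from 1675 to 1788 CPM in supplemented 2N and from 2109 to 2664 CPM in supplemented Ts65Dn. Son, Itsn1 and Synj1 made up a large share of the sum, with means of 540.1, 553.7 and 431.9 CPM in control-diet 2N. Without Son the control-diet ranges were 1141 to 1786 and 1658 to 1937 CPM and overlapped. The supplemented-diet ranges without Son, 1141 to 1353 and 1434 to 1877 CPM, did not overlap. The 2 supplemented Ts65Dn libraries whose columns stand among those of the supplemented 2N mice in the series table (replicates 2 and 5) had 2636 and 2664 CPM, above the other 6 supplemented Ts65Dn libraries (at most 2557) and the 4 supplemented 2N libraries (at most 1788). Mitochondrial ribosomal RNA made up 17.81% and 21.15% of the counts in these 2 libraries and 29.03% to 43.26% in the other 6. In the 4 supplemented 2N libraries it made up 18.12% to 22.59%. Whether the labels of these 2 libraries are right was not tested. The difference between the receptor genes and their neighbours was not tested.

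**Figure D3:**
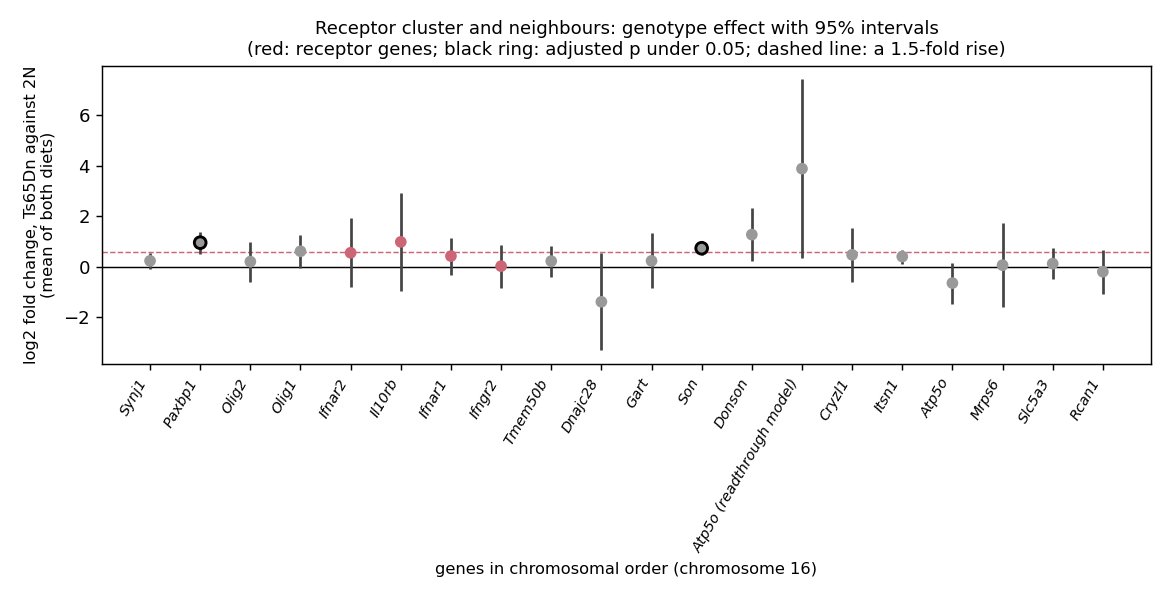
Log2 difference between Ts65Dn and 2N, averaged over the diets, with 95% intervals, for the 4 receptor genes (red) and the 16 tested neighbouring gene models (grey) in their order on chromosome 16. Son (0.73) and Paxbp1 (0.95) carry the black rings of an adjusted p under 0.05, and the intervals of the 4 receptor genes hold 0 and the dashed line at 0.58.

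Of the members outside the triplicated segment, Ifngr1, the chain that binds interferon gamma and carries Jak1, varied most between libraries. Its lowest, median and highest levels were 8.14, 25.7 and 42.9 CPM in control-diet 2N and 0.0949, 8.95 and 38.6 CPM in control-diet Ts65Dn, where 1 of 6 libraries was above the 2N mean. Among supplemented mice the 2N libraries had 17.6, 1.04, 24.3 and 18.7 CPM, and the Ts65Dn libraries ran from 0 in 2 of 8 through a median of 12.6 to 65.7 CPM. The log2 genotype difference was -1.11 ± 0.96 (SE; interval -3.05 to 0.83; edgeR adjusted p 0.816) on the control diet and 0.27 ± 1.02 with supplementation. Without control-diet Ts65Dn replicate 3 the first became -2.02, and without supplemented Ts65Dn replicate 5 the second became -0.38. The within-group SD of Ifngr1 was 2.41 on the log2 scale, or 5.31-fold, and 98% of 1907 genes of similar level varied less.

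Tyk2, the kinase of the Ifnar1 chain, had the largest genotype difference of the 9 genes on the control diet, without passing the test. Control-diet 2N libraries had 1.76, 6.27 and 19.3 CPM (lowest, median, highest) and control-diet Ts65Dn libraries 13.2, 21.2 and 77.4 CPM. All 6 Ts65Dn libraries were above the 2N mean of 7.28 CPM and 4 of 6 were above every 2N library, so the groups overlapped only through the highest 2N library and the 2 lowest Ts65Dn libraries. The log2 difference was 2.12 ± 0.66 (SE), or 4.36-fold, with an interval of 0.79 to 3.46 and an edgeR adjusted p of 0.190 (unadjusted 0.00254). DESeq2 gave 2.22 with an adjusted p of 0.0142, and over the other settings tried (apart from leaving out single libraries) the adjusted p ran from 0.162 to 0.63. Within the libraries of ID prefix 17 the difference was 2.20.

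The highest Tyk2 value, 77.4 CPM, came from control-diet Ts65Dn replicate 3, the library with the fewest genes detected (13102). Without it the difference was 1.63 with an adjusted p of 0.39. On the supplemented diet Tyk2 was at 12.3, 16.1, 13.7 and 11 CPM in 2N and at 6.34, 20.5 and 39.8 CPM (lowest, median, highest) in Ts65Dn, with 5 of 8 above every 2N library. The difference there was 0.73 ± 0.70 (log2, SE; adjusted p 0.933 by edgeR), and 0.39 within ID prefix 16. Averaged over the diets Tyk2 differed by 1.43 ± 0.49 (interval 0.45 to 2.41; edgeR adjusted p 0.155; DESeq2 1.5, adjusted p 0.0155). The interaction, -1.39 ± 0.92 with an adjusted p of 0.792, did not separate the 2 diets. An antisense gene model over Tyk2, 1700084C06Rik, had counts in 7 of 24 libraries (up to 12.6 CPM), and whether the counting used the strand is not given in the sources used here.

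Beside the control-diet difference in Tyk2, other measures also differed between these groups. The tested cholinergic markers were positive in 0 of 9 with a median log2 difference of -0.89 and none called. Of 6 glutamatergic neuron markers 3 were positive, of which Camk2a was called higher in Ts65Dn, and their summed level ran from 294.6 to 3556 CPM in Ts65Dn and from 159.8 to 846.6 CPM in 2N. Of 10 general neuron markers 2 were positive, and Nefm, a neurofilament gene, was called lower (log2 difference -1.29; edgeR adjusted p 0.0411). Oligodendrocyte markers were positive in 0 of 10 (median -0.53) and astrocyte markers in 1 of 9 (median -0.64), with none called, while 49.0% of all genes were positive. The part of these in the Tyk2 difference was not tested.

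Jak1, the kinase shared by all the receptors named here, was the most even of the 9 genes, with a within-group SD of 0.60 on the log2 scale (1.52-fold). Its lowest, median and highest levels were 79.4, 99.8 and 167.8 CPM in control-diet 2N, and 64.7, 111.6 and 160.4 CPM in control-diet Ts65Dn. The supplemented 2N libraries had 91.7, 76.5, 118.5 and 83.0 CPM, and the supplemented Ts65Dn libraries 36.2, 118.4 and 181.2 CPM. The groups overlapped on both diets, and supplemented Ts65Dn held both the lowest and the highest library. The averaged genotype difference was 0.20 ± 0.24 (log2, SE), with an interval of -0.28 to 0.67, the narrowest of the 9 genes.

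Stat2, the Stat protein particular to the type I and lambda interferon response, ran from 5.16 through a median of 30.4 to 47.4 CPM in control-diet 2N and from 3.14 through 21.1 to 42.9 CPM in control-diet Ts65Dn. In the supplemented groups it was at 31.8, 13.5, 7.60 and 12.5 CPM in 2N and at 5.84, 23.9 and 42.8 CPM (lowest, median, highest) in Ts65Dn. The ranges overlapped on both diets, and the averaged genotype difference was 0.07 ± 0.46 (log2, SE; adjusted p 0.984 by edgeR). The promoter of this gene is the one in which the ISRE core shown above was found.

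Irf9, the DNA-binding partner of Stat2, was at 6.21, 7.36 and 17.7 CPM (lowest, median, highest) in control-diet 2N and at 1.65, 5.01 and 34.5 CPM in control-diet Ts65Dn. The 2 highest control-diet Ts65Dn libraries, at 21.1 and 34.5 CPM, were above every 2N library and the other 4 were below all of them. Supplemented 2N libraries had 14.0, 1.35, 12.6 and 14.8 CPM, and supplemented Ts65Dn libraries ran from 0 through 5.50 to 13.8 CPM, with 1 of 8 above the 2N mean. The log2 differences were 0.31 ± 0.99 (SE) on the control diet and -0.75 ± 1.03 with supplementation, with edgeR adjusted p of 0.972 and 0.98, and the first was -0.39 without control-diet Ts65Dn replicate 3. Rnf31 overlaps Irf9 on the same strand and had 4.52 to 86.3 CPM, so reads could be divided between them.

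**Figure D4:**
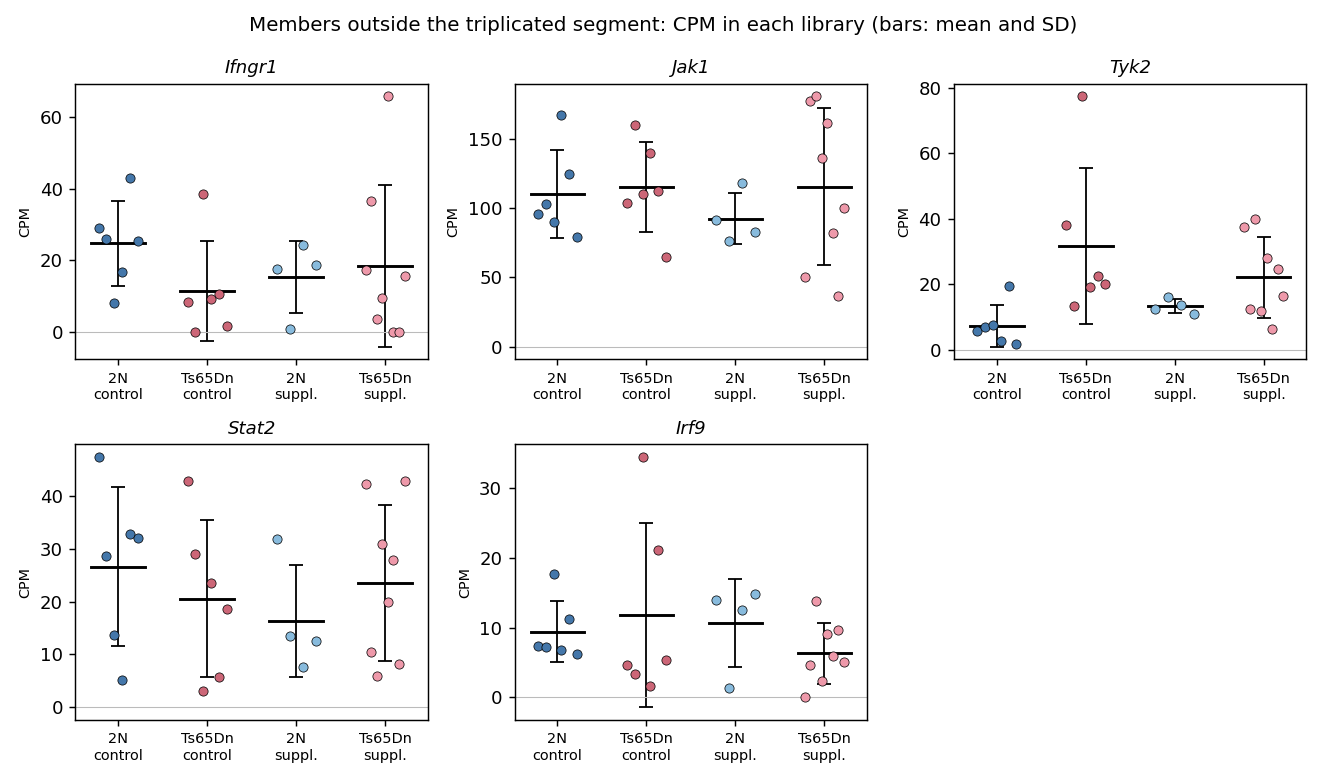
CPM of the 5 members outside the triplicated segment in each library, by genotype and diet; bars are the mean and SD. Control-diet Ts65Dn libraries reach 77.4 CPM for Tyk2 against at most 19.3 CPM in control-diet 2N, and the groups overlap for each of the 5 genes.

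The second question was whether supplementation of the dams changed these genes. None of the 9 passed the edgeR test for supplementation in Ts65Dn, where 0.13% of all genes did, or in 2N, where 0.00501% did (1 gene), and none reached an unadjusted p under 0.05, as 9.62% and 6.92% of all genes did. DESeq2 and limma called none of the 9 either, and DESeq2 called 1.23% and 1.09% of all genes. In Ts65Dn 5 of 9 log2 differences, supplemented minus control, were positive, with a median of 0.13, and all genes had a median of 0.04. The widest apart were Irf9 at -0.89 ± 0.92 (SE) and Il10rb at 0.78 ± 1.22, and Jak1 was at 0.00 ± 0.30. Tyk2 was at -0.52 ± 0.59 in Ts65Dn (-0.02 without control-diet replicate 3) and at 0.87 ± 0.70 in 2N, where 4 of 4 supplemented libraries were above the control-diet mean.

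In 2N mice the smallest unadjusted p belonged to Ifngr2. Its 4 supplemented libraries all lay below the control-diet mean of 37.6 CPM, and the difference was -1.26 ± 0.68 (log2, SE; interval -2.63 to 0.11; edgeR adjusted p 0.829). Without the library at 0.696 CPM it was -0.86. The other supplementation differences in 2N ran from -0.70 for Stat2 to 1.32 for Il10rb. For the genotype by diet interaction 0 of 9 passed with edgeR or DESeq2 and none reached an unadjusted p under 0.05. Of all genes edgeR called 0.00501% and DESeq2 1.38%, and 8.43% reached that unadjusted level. The interaction was positive in 4 of 9 members with a median of -0.49 (all genes 0.13).

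No member had 2 groups without overlap in any of the 4 pairwise comparisons of groups. Among all tested genes 0.631% had none between genotypes on the control diet, 0.606% on the supplemented diet, 0.0701% between diets in Ts65Dn and 1.34% between diets in 2N.

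**Figure D5:**
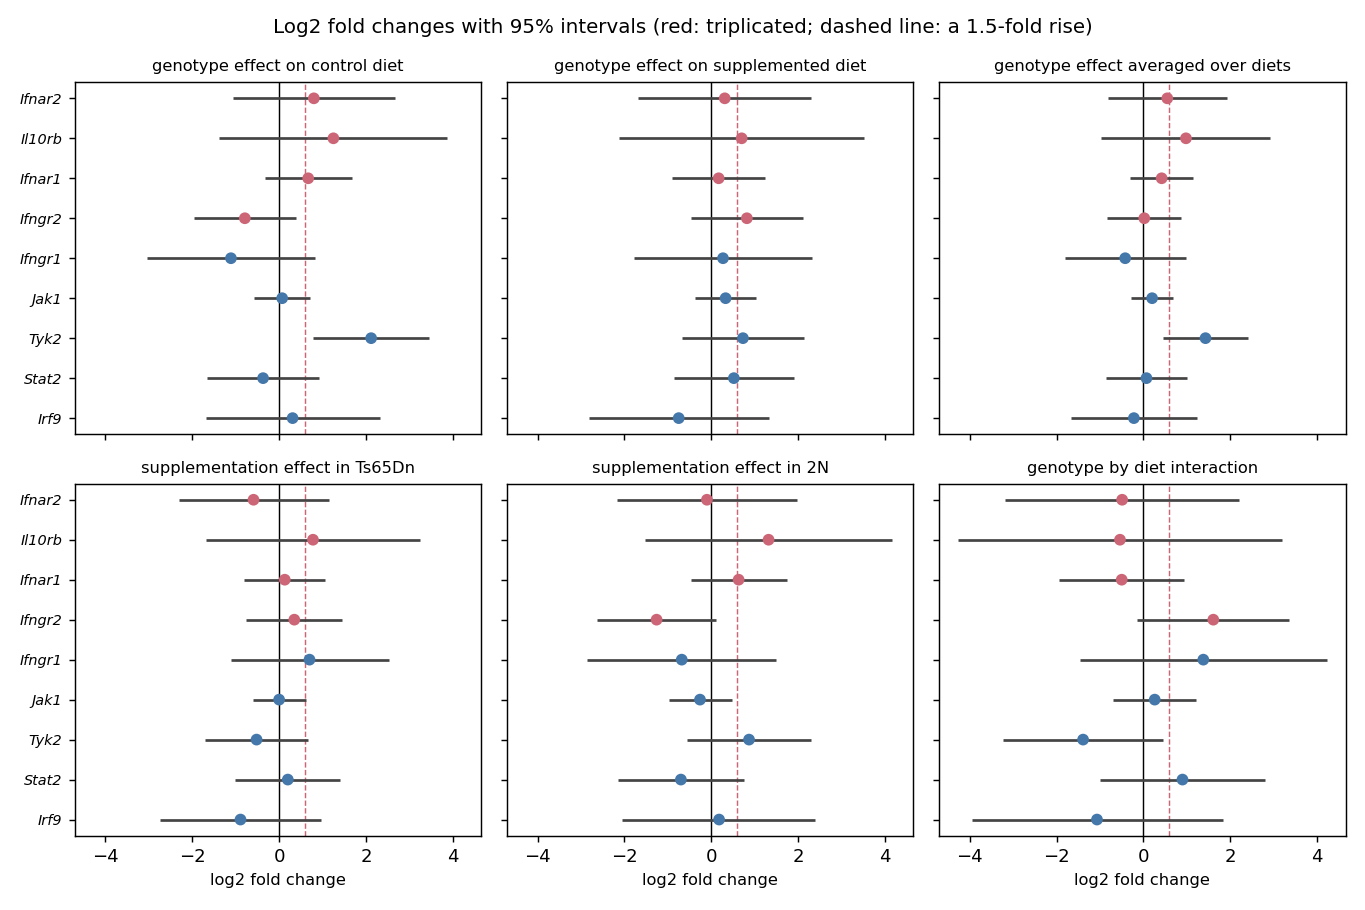
Log2 differences of the 9 genes with 95% intervals in the 6 comparisons (red, triplicated genes; blue, the other members; dashed line, 1.5-fold). The interval excludes 0 only for Tyk2, in the genotype effect on the control diet (0.79 to 3.46) and averaged over the diets (0.45 to 2.41).

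The rest of the pathway was read from the same fits. Of 18 listed ligand genes (interferons and interleukins of the interleukin 10 family) none had enough reads to be tested, 9 were at 0 in all 24 libraries, and their summed level was at most 5.08 CPM in any library. Of 13 partner receptors, kinases and Stat genes 10 were tested, of 8 interferon regulatory factor genes 6, of 20 negative regulators 19, and of 82 listed interferon-stimulated genes 62. With edgeR 0 of the tested genes of each of these 4 lists passed in either direction in any of the 6 comparisons. At an unadjusted p under 0.05 there were, by comparison, 0 to 1 of 10 partner genes, 0 to 1 of 6 regulatory factors, 1 to 2 of 19 negative regulators and 3 to 8 of 62 interferon-stimulated genes. Of all genes 6.92% to 12.9% reached that level in either direction, as counted here, so these counts lay near the background when direction is left aside. DESeq2 called Parp14 higher in Ts65Dn on the supplemented diet and in the average, and lower with supplementation in 2N. It also called Socs7 lower with supplementation in Ts65Dn, and no other gene of these lists in any comparison, and limma on log2(TPM + 1) called none.

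Among the interferon-stimulated genes 38 of 62 were positive for genotype on the control diet (median 0.27), 37 of 62 on the supplemented diet (0.28) and 36 of 62 in the average (0.28). Of all genes 49.0%, 54.0% and 51.9% were positive in these comparisons. In the average 8 of the 62 reached an unadjusted p under 0.05, all higher. Of all genes 12.9% reached that level in either direction, and the share of all genes that were higher at that level was not computed. The smallest p in the average belonged to Parp14, a mono-ADP-ribosyltransferase, at a log2 difference of 3.05 ± 1.04 (SE; edgeR adjusted p 0.156). Parp14 lies on chromosome 16 outside the triplicated segment and had control-diet means of 12.7 ± 8.22 CPM (SD, n = 6) for Ts65Dn and 5.92 ± 4.98 (SD, n = 6) for 2N, against 7.92 ± 5.18 (n = 8) in Ts65Dn and 0.232 ± 0.464 (n = 4) in 2N with supplementation. The supplemented 2N level was thus low in itself. The summed level of all 81 matched genes overlapped between groups, from 452.4 to 670.1 CPM in Ts65Dn and 457.2 to 645.2 in 2N on the control diet, and from 498.7 to 742.5 in Ts65Dn and 455.2 to 825.1 in 2N with supplementation.

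Microglia, which express many interferon-stimulated genes, were followed by 12 markers, none of which passed the test for genotype on either diet or in the average. In the average 11 of 12 were positive, with a median of 0.55 and none at an unadjusted p under 0.05, and all genes were positive in 51.9% with a median of 0.04. Their summed level ran from 99.2 to 240.8 CPM in Ts65Dn and 77.9 to 172.6 in 2N on the control diet, and from 92.2 to 204.1 in Ts65Dn and 65.9 to 121.4 in 2N with supplementation. No marker of the list was at 0 in all libraries, and the part of microglial RNA in the levels of the 9 genes was not tested.

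The kinases and Stat proteins that work beside the 9 genes did not pass the test either. Stat3 was at 43.0 ± 20.7 CPM (SD, n = 6) in control-diet 2N and 30.3 ± 14.9 CPM (n = 6) in control-diet Ts65Dn, a log2 difference of -0.51 ± 0.42 (SE; adjusted p 0.798 by edgeR). Jak2, the kinase of Ifngr2, was at 32.2 CPM in control-diet and 12.3 CPM in supplemented Ts65Dn, a difference of -1.38 ± 0.63 (adjusted p 0.436 by edgeR). Among the negative regulators, Socs7, a member of the suppressor of cytokine signalling family, had control-diet means of 98.1 ± 27.4 CPM (SD, n = 6) for Ts65Dn and 58.7 ± 20.3 (SD, n = 6) for 2N, against 50.7 ± 14.1 (n = 8) in Ts65Dn and 42.1 ± 6.41 (n = 4) in 2N with supplementation. It was 0.74 ± 0.32 (log2, SE) apart between the control-diet genotypes (adjusted p 0.354) and -0.95 ± 0.30 with supplementation in Ts65Dn (adjusted p 0.224 by edgeR, the call DESeq2 made). Pias4, which encodes an inhibitor of activated Stat proteins, was at 30.6 CPM in control-diet and 9.80 CPM in supplemented Ts65Dn, a difference of -1.64 ± 0.58 (adjusted p 0.249). With supplementation in Ts65Dn the tested cholinergic markers were positive in 9 of 9 (median log2 difference 1.5). By edgeR 6 of them were at an unadjusted p under 0.05 and 0 were called. Of 6 glutamatergic markers 1 was positive (median -2.6), 3 were lower at that unadjusted level and 1 was called lower. All genes were positive in 51.9% with a median of 0.04, and 9.62% reached that unadjusted level in either direction. The part of these markers in the differences of Jak2, Socs7 and Pias4 was not tested.

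The 9 genes did not vary together between libraries of a group. After group means were subtracted, the correlation of log2 CPM over the 24 libraries ran from -0.54 for Stat2 with Irf9 to 0.40 for Ifngr1 with Jak1, as a description only, since the points share their library and its depth. The gene most like each member in this measure, among 5541 or 5542 better-expressed coding genes, was Sept4 for Jak1 (r = 0.85), Papola for Irf9 (0.81), Zfp292 for Ifnar2 (0.78), Magi1 for Tyk2 (0.76), Ap3b1 for Ifngr1 (0.75), Rps15 for Il10rb (0.75), Optn for Stat2 (0.75), Sap18 for Ifnar1 (0.73) and Olfm3 for Ifngr2 (0.68). Each r is the highest of the 5541 or 5542 computed for that member, and how high it would be among unrelated genes was not tested. None of these genes is a member of the pathway lists. The search left out genes with a mean log2 CPM under 4, such as Il10rb (1.78) and Irf9 (2.70), so many pathway genes could not appear.

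The spread within groups set what could be seen. The within-group SD on the log2 scale was 0.60 for Jak1, 0.92 for Tyk2, 0.96 for Ifnar1, 1.15 for Ifngr2, 1.17 for Stat2, 1.54 for Irf9, 1.77 for Ifnar2, 2.12 for Il10rb and 2.41 for Ifngr1. Against genes of similar level Tyk2 was among the least variable (8% of 1979 varied less), as was Irf9 (17% of 1893), whereas Ifnar1, Ifngr2 and Jak1 stood at 66%, 61% and 72%. For genotype in the average the 95% intervals of all 9 genes held the 0.58 of a 1.5-fold difference, and those of 8 of the 9, all but Tyk2, also held 0. For the 4 triplicated receptor genes the averaged intervals therefore neither showed nor excluded a difference of the size of gene dose. On the control diet alone the interval of Ifngr2, -1.97 to 0.39, did not hold 0.58.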

How the data were processed

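Gene-level RSEM expected counts were deposited without normalization in 1 table of all samples and in a file for each sample, together with deposited TPM in the latter. Per the submitters' processing notes, the tools were Trimmomatic 0.39, STAR and RSEM, and builds GRCm39 and mm10 are named without roles, so the genes are given without coordinates. No version of STAR or RSEM is given in the sources used here. Libraries were made with a stranded low-input total RNA kit and sequenced as single reads, per the labels' protocols. All 24 columns of the table equalled the per-sample files. Symbols came from GENCODE M21 (52133 of 55414 identifiers matched).

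Expected counts were rounded, filtered (filterByExpr, minimum count 10) and scaled by TMM. All 24 libraries were fitted as 4 group means with edgeR's quasi-likelihood test (edgeR 4.0.16, R 4.3.3), two-sided, with Benjamini-Hochberg adjustment over 19967 genes and calls at adjusted p under 0.05. SE is the log2 fold change divided by the root of its F statistic. The script was tested on simulated data. CPM are TMM-scaled. Alternatives were DESeq2 1.42.0, limma 3.58.1 on log2(TPM + 1), other scalings, no filter, the compared groups alone, ID prefix as a factor or within it, and leaving out libraries.

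Groups follow the genotype and treatment labels. Replicate numbers follow sample order and pair nothing. ID prefixes fell unevenly over the groups, so prefix and group are partly confounded. Control-diet 2N libraries had prefixes 15 and 17, and control-diet Ts65Dn libraries 16 and 17. Supplemented 2N libraries had 14 to 16, and supplemented Ts65Dn libraries 14 to 17. No prefix had 2 libraries or more in both 2N groups, so supplementation in 2N was not compared within a prefix. No label gives litters, although diet was given to dams, so p-values leave litter out of account. Reads carried no molecular identifiers.

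The 9 members and all gene lists were chosen with earlier results of these data known. Named genes were all members, the receptor neighbours, and, per pathway list and comparison, called genes or the 2 with the smallest p. From those the text describes a part. Likeness was ranked over coding genes with mean log2 CPM of at least 4.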

Additional observations from a re-analysis of the deposited data

Results flagged for a closer look

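In 36 combinations of a gene and a group, 5 single libraries stood far from the others of their group, where chance alone gives about 1 in 20. Supplemented 2N replicate 2 was low for Ifngr1 (1.04 CPM) and for Irf9 (1.35 CPM). Supplemented 2N replicate 4 was low for Ifngr2 (0.696 CPM). Il10rb was at 0 CPM in supplemented Ts65Dn replicate 8, and Irf9 was at 0 CPM in supplemented Ts65Dn replicate 1. All 5 are low values. Distances were taken on log2 CPM with a prior count of 2, where the gap to the nearest library took up 0.58 to 0.95 of the whole range of the group, and the log scale stretches values at or near 0.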

How the results depend on the processing

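The number of members called was 0 in all 6 comparisons under each setting except DESeq2, which called 1 (Tyk2) on the control diet and 1 (Tyk2) in the genotype average, and the leave-one-out count ran from 0 to 0. No paired analysis was possible because replicate numbers follow sample order and no label links animals. Of 864 member values with 1 library left out 43 changed sign, and of 467 under other settings 54 did; 1 member was not tested in 1 setting. The cause of the changes was not tested.

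Log2 differences that changed sign were these. With limma on log2(TPM + 1), where the all-gene median for genotype was -0.28 (control), -0.40 (supplemented) and -0.35 (average), the values were Jak1 -0.20 and Irf9 -0.59 for genotype on the control diet. On the supplemented diet they were Ifnar1 -1.06, Ifnar2 -0.27, Ifngr1 -0.96, Ifngr2 -0.12, Jak1 -0.92 and Stat2 -0.15, and in the average Ifnar1 -0.37, Ifnar2 -0.08, Ifngr2 -0.72, Jak1 -0.56 and Stat2 -0.55. For supplementation they were Ifnar1 -0.18 and Ifngr1 -0.54 in Ts65Dn and Ifnar2 0.36, Jak1 0.94 and Irf9 -0.40 in 2N, and Jak1 -0.72 for the interaction. With the ID prefix as a factor, genotype on the supplemented diet gave Ifnar1 -0.21, Ifngr1 -1.80 and Jak1 -0.06. Supplementation gave Ifnar1 -0.20, Ifngr1 -0.11, Ifngr2 -0.04 and Jak1 -0.26 in Ts65Dn and Ifnar2 0.06, Ifngr1 1.27 and Jak1 0.05 in 2N, and the interaction gave Ifngr1 -1.38 and Jak1 -0.31. Within ID prefix 16, genotype on the supplemented diet gave Ifnar1 -0.27, Jak1 -0.72 and a fitted Ifngr1 value of -10.4, which is no measured size because both Ts65Dn libraries there were at 0, and supplementation in Ts65Dn gave Ifngr2 -0.28, Jak1 -1.12, Stat2 -0.97 and Irf9 0.99. Within ID prefix 17, genotype on the control diet gave Ifnar2 -0.70 and Jak1 -0.10.

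With unscaled totals, where the all-gene median for genotype on the supplemented diet was -0.19, Ifnar1 was -0.11 there, Ifngr2 was -0.08 and Stat2 -0.02 in the average, Ifnar1 -0.04, Jak1 -0.10 and Stat2 -0.07 for supplementation in Ts65Dn, and Ifnar2 0.04 in 2N. Jak1 was -0.01 for supplementation in Ts65Dn with DESeq2 and with RLE factors. The next 2 settings were chosen after seeing the data. Without the 2 libraries of fewest genes (control-diet Ts65Dn replicate 3 and supplemented Ts65Dn replicate 7) Irf9 was -0.39 on the control diet. Without supplemented Ts65Dn replicates 2 and 5 Ifngr1 was -0.99 for genotype on the supplemented diet, Ifngr2 -0.05 in the average, and Ifngr1 -0.56 and Jak1 -0.24 for supplementation in Ts65Dn.

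With single libraries left out, genotype differences that changed sign ran from -0.05 to 0.22 (Jak1) and -0.39 to 0.59 (Irf9) on the control diet. On the supplemented diet they ran from -0.14 to 0.42 (Ifnar1), -0.07 to 1.23 (Ifnar2) and -0.38 to 0.58 (Ifngr1), and in the average from -0.18 to 0.16 (Ifngr2) and -0.10 to 0.34 (Stat2). Supplementation differences did so from -0.17 to 0.42 (Ifnar1), -0.84 to 0.17 (Ifnar2), -0.12 to 0.15 (Jak1) and -0.00 to 0.55 (Stat2) in Ts65Dn, and from -1.02 to 0.28 (Ifnar2) and -0.02 to 0.54 (Irf9) in 2N. The interaction ran from -0.87 to 0.43 (Ifnar2) and -1.05 to 0.08 (Il10rb). Counts of all genes called ranged, over single libraries left out, from 4 to 127 on the control diet, 0 to 72 on the supplemented diet and 108 to 325 in the average, beside 67, 36 and 196 with all libraries, and over the other settings they ran from 0 to 326, 29 to 410 and 105 to 726. For supplementation in Ts65Dn, in 2N and the interaction they were 26, 1 and 1 with all libraries, 12 to 80, 0 to 2 and 1 to 12 with single libraries left out, and 6 to 236, 0 to 212 and 0 to 268 over the other settings. The upper end is DESeq2 in each case. Without replicate 3 of control-diet Ts65Dn Tyk2 was 1.63 on that diet.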
